A study of Ascaris suum with 62 samples.

Results

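On 31 of the 38 large scaffolds of the pig roundworm *Ascaris suum*, the centromeric histone CENP-A covered a share of the DNA in testis that was of the same order as in early embryos. These scaffolds were chosen by their CENP-A peaks. The extent of a scaffold was taken as the last peak end in any of 12 peak lists, and cover is the percent of that extent inside peaks. A scaffold was selected when its extent was at least 2 Mb and its mean cover in the 0hr, 46hr and 60hr embryo lists was under 2.5 times its mean cover in the testis1, testis2 and testis3 lists. Of 600 scaffolds with peaks, 38 reached 2 Mb and 31 passed the second condition. They are called the balanced scaffolds here. They span 100.03 Mb, or 35.2% of the 284 Mb that all peaks span. The 5 longest are 0003, 0004, 0005, 0007 and 0008. The remaining 26 are 0009 to 0011, 0013 to 0025, 0027 to 0029, 0031 to 0037. The 7 other scaffolds of at least 2 Mb are 0001, 0002, 0006, 0012, 0026, 0030 and 0038, and they span 29.8 Mb.

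CENP-A takes the place of histone H3 in nucleosomes of centromeric chromatin and is the base on which the kinetochore is built. *Ascaris* chromosomes are holocentric, so CENP-A lies in many places along a chromosome and not at a single point. Cells that form the body of the embryo discard part of the genome during early cleavage, a process called programmed DNA elimination, whereas germ cells keep it. Kinetochores are where the spindle pulls on chromosomes, so CENP-A marks the places where DNA can be held when a cell divides.

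The data are chromatin immunoprecipitation with sequencing (ChIP-seq) for CENP-A in gonads, in embryos incubated at 30 °C and in larvae. No strain, genotype or treatment separates the groups. The 12 lists are testis1, testis2 and testis3; ovary1, ovary2 and ovary3; embryos at 0hr (eggs from the final proximal region of the uterus), 46hr and 60hr, called early here; and embryos at 5day and 7day with L1, the first larval stage, called late here. The meaning of the gonad numbers is not in the labels, so whether testis and ovary lists 1 to 3 are parts of a gonad or separate animals is unknown; the embryo and larval lists of a class are different stages. An SD over the lists of a class is the spread between these lists. Each list is 1 peak set with read counts from 2 libraries, 1 single-end and 1 paired-end. Reads in peaks ran from 3350983 in ovary2 to 19540698 at 5day with both libraries summed, and peaks per list from 9197 in testis3 to 21837 at 0hr. The libraries agreed least in testis3, where their log read densities over peaks correlated at 0.51, against 0.76 to 0.91 in the other 11 lists. In testis3 the balanced scaffolds took 42.2% of the reads in peaks of one library and 46.9% of the other, whereas in every other list the shares of the libraries differed by less than 1 percentage point.

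The testis and early lists chose the scaffolds, so their values are given as a description. Mean testis cover of the balanced scaffolds ran from 5.54% on 0035 to 23.6% on 0018, and mean early cover from 8.59% on 0035 to 29.9% on 0034. The early to testis ratio ran from 0.978 on 0018 to 2.13 on 0034, with a median of 1.46. The next scaffold beyond the threshold, 0012, had a ratio of 6.01, and the highest, 0002, had 9.19. No scaffold of at least 2 Mb lay between 2.13 and 6.01, so any threshold in that gap selects the same 31 scaffolds. A threshold of 2 leaves 30 and drops only 0034. The balanced scaffolds and the rest stood apart mainly along the testis axis: testis cover of the 7 others ran from 2.81% to 4.39%, below the lowest balanced scaffold, whereas their early cover, 25.2% to 28.9%, lay within the range of the balanced scaffolds.

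**Figure D1:**
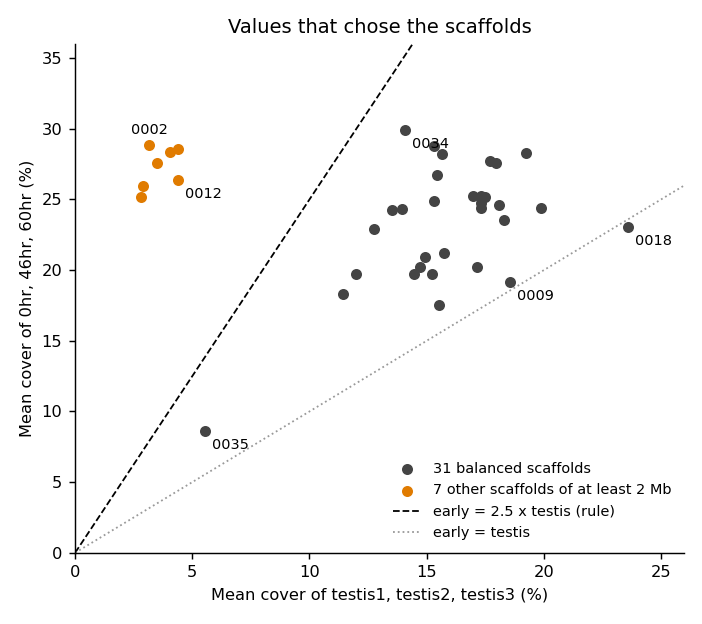
Mean cover of the 3 testis lists (x axis, %) against mean cover of the 3 early lists (y axis, %) for the 38 scaffolds of at least 2 Mb, one point each. The dashed line is the rule, 2.5 times the testis cover. The 7 other scaffolds (orange) lie far above it, at ratios of 6.01 or more, and 0018 is the only scaffold under the dotted line of equal cover.

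Pooled over the 31 balanced scaffolds, CENP-A peaks covered 17.1% of the DNA in testis1, 21.6% in testis2 and 8.89% in testis3. The same scaffolds had 10.7% in ovary1, 8.72% in ovary2 and 16.9% in ovary3. The early lists had 22.6%, 22.8% and 24.0% (0hr, 46hr, 60hr), and the late lists 19.7%, 17.8% and 17.7% (5day, 7day, L1). Early embryos were thus highest and close to each other, the late lists were lower and close to each other, and the gonad lists were widely spread, with ovary2 and testis3 lowest. As class means over lists these are 15.9% ± 6.45 in testis, 12.1% ± 4.24 in ovary, 23.1% ± 0.725 in early and 18.4% ± 1.14 in late lists (SD between lists, n = 3 each).

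The 7 other large scaffolds had 4.54%, 5.41% and 1.15% in the testis lists and 30.8%, 26.2% and 26.3% in the early lists, values that the choice fixed. In the 6 lists that took no part in the choice, both sets had similar cover. The other scaffolds had 9.80%, 7.21% and 17.8% in the ovary lists and 19.98%, 18.3% and 16.0% in the late lists. The mean log2 ratio of balanced to other cover over these 6 lists was 0.07 ± 0.14 (SD, n = 6), a ratio of 1.05, with 3 lists above and 3 below equal cover. The two-sided exact sign-flip permutation test over 64 sign patterns gave p = 0.281, and p = 0.352 after Benjamini-Hochberg adjustment over the 5 tests of this kind. The log2 ratio differed little between late lists (0.03 ± 0.10, SD, n = 3) and ovary lists (0.11 ± 0.18, SD, n = 3). The two-sided exact permutation test of this difference over 20 splits, which cannot go below 0.1, gave p = 0.7. A difference smaller than this spread between lists could not be seen with 6 lists.

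**Figure D2:**
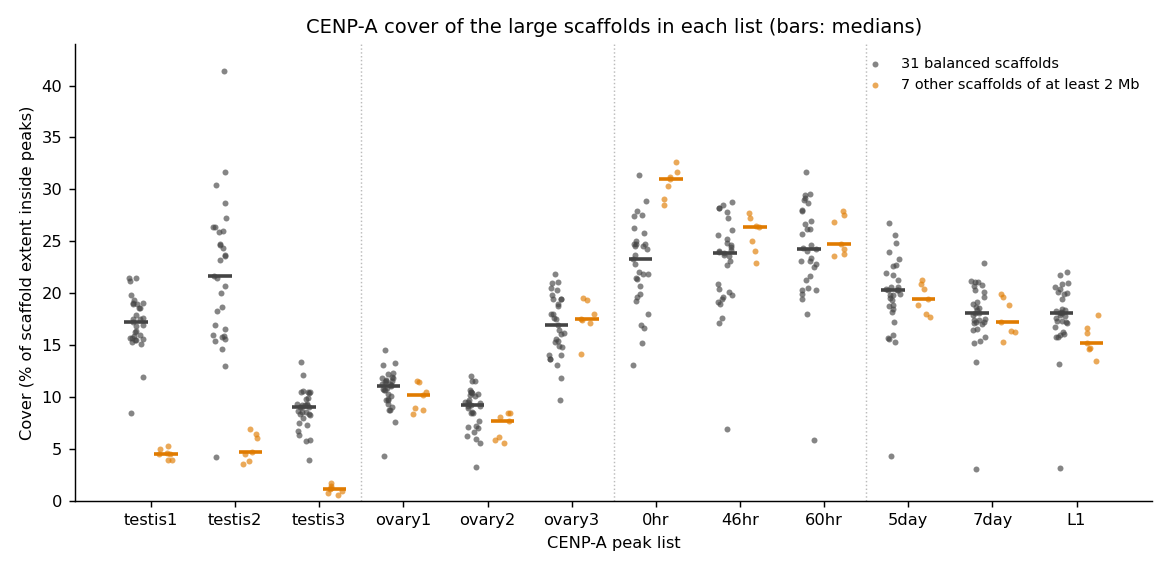
Cover (y axis, % of scaffold extent inside peaks) of each balanced scaffold (grey) and each other scaffold of at least 2 Mb (orange) in the 12 lists, with medians as bars. The sets are apart in the testis lists, where the 31 have medians of 17.2%, 21.7% and 9.05%, and overlap in the ovary and late lists; the low grey point in most lists is 0035.

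Most balanced scaffolds followed the pooled course. Scaffold 0003, the longest at 6.11 Mb, had 17.9%, 25.9% and 9.28% in testis lists 1 to 3, 10.1%, 9.67% and 19.4% in ovary lists 1 to 3, 26.3%, 28.2% and 28.6% at 0hr, 46hr and 60hr, and 24.0%, 21.1% and 19.98% at 5day, 7day and in L1. Its 3 early lists were above all its others, and every late list was above every ovary list. Scaffold 0004, of 6.07 Mb, had a flatter course, with 17.7%, 16.0% and 10.5% in testis, 10.8%, 6.98% and 14.9% in ovary, 19.2%, 19.8% and 21.7% in early and 18.8%, 17.3% and 16.7% in late lists. Scaffold 0034, the member nearest to the threshold, had testis values of 15.3%, 18.3% and 8.58%, somewhat below the medians of the set. Its early values of 31.4%, 28.8% and 29.6% had the highest mean of the 31.

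Within a scaffold the order of the lists was often the same. Ovary3 was above ovary2 on 31 of 31 scaffolds and above ovary1 on 30, and ovary1 was above ovary2 on 28. Each of these orders held on all 7 other large scaffolds. Cover at 5day was above that at 7day on 31 of 31, by a median of 1.79 percentage points, while 7day was above L1 on 16. Both held on all 7 others. In the lists that chose the scaffolds, testis3 was below testis1 and testis2 on all 31 and on all 7 others. Testis2 was above testis1 on 21 of the 31 and on 5 of the 7. Over all scaffolds, ovary lists 1 to 3 covered 28.8, 21.7 and 43.5 Mb, 5day 48.8 Mb and 7day 44.8 Mb, in the same order. The scaffolds share their lists, so these counts are a description of the lists.

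The extremes of each list fell on different scaffolds. In testis1 the highest was 0028 at 21.4% and, with 0035 set aside, the lowest 0007 at 11.9%. Scaffold 0021 was highest in ovary1 at 14.6%, and 0013 in ovary2 at 11.98%. Scaffold 0020 was lowest in ovary3, 0hr, 46hr and 5day (9.75%, 15.2%, 17.1% and 15.3%; 0035 set aside in the last 3), though its testis2 cover of 23.6% was above the median. Scaffold 0037, the shortest at 2.08 Mb, was highest at 60hr and in the 3 late lists, with 31.6%, 26.7%, 22.9% and 22.1%.

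The list with the highest cover was 60hr on 15 of the 31 scaffolds, testis2 on 7, 0hr on 6, ovary3 on 2 and 5day on 1. The list with the lowest cover was testis3 on 17, ovary2 on 11, ovary1 on 2 and 7day on 1. On all 7 other large scaffolds 0hr was highest and testis3 lowest. At 0hr, 29 of the 31 balanced scaffolds lay below the lowest of the 7 others, and none lay above the highest of them. Testis and early lists, 0hr among them, chose the scaffolds, so these differences between the sets are partly fixed by the choice.

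Testis2 was the list in which the balanced scaffolds differed most among themselves. Cover there ran from 4.24% on 0035, or 12.99% on 0023 if 0035 is set aside, to 41.4% on 0018, with a coefficient of variation of 0.319. In the other 11 lists the coefficient of variation was 0.155 (testis1) to 0.222 (ovary2). The scaffolds where testis2 was highest of all lists were 0009, 0018, 0020, 0024, 0025, 0033 and 0037, at 23.5% to 41.4%. Scaffold 0018 had 16.0% in testis1, 41.4% in testis2 and 13.4% in testis3, and its 9 other lists ran from 10.6% in ovary2 to 24.0% at 46hr. It was the highest of the 31 in testis3 as well, whereas its cover in testis1 and in the ovary, early and late lists was inside the range of the other balanced scaffolds.

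The excess of testis2 on 0018 lay in particular stretches and not evenly along the scaffold. In bins of 100 kb, 10 of its 32 bins had testis2 cover of 50% or more. At 1000001 to 1100000 it was 91.8%, against 26.04% in testis1 and 29.7% in testis3, 14.3% to 22.5% in the ovary lists and 17.99% to 38.5% in early and late lists. At 2600001 to 2700000 testis2 had 70.1%, whereas testis1 had 1.03% and testis3 8.73%. Over all balanced scaffolds 80 of 1005 bins reached 50% in testis2, 4 in testis1 and none in testis3. On the 7 others 1 of 300 bins did so in testis2, a contrast partly fixed by the choice, which used testis cover. Of the 80, 10 were on 0018, 9 on 0009 and 7 on 0003, and 25 of the 31 scaffolds had at least 1.

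On 3 of the 31 scaffolds there were peaks with the authors' mark for eliminated DNA, and 28 had none. On 0005 these were 4 peaks within 2.56 kb (4466409 to 4468968), present in testis1, ovary1, ovary3 and 0hr and in no other list. On 0010 they were 258 peaks over 840.4 kb (2674262 to 3514706), 20.9% of its extent. Inside that stretch cover was 7.04%, 4.75% and 2.81% in the testis lists, 5.09%, 5.41% and 27.1% in the ovary lists, 17.4%, 7.04% and 3.28% at 0hr, 46hr and 60hr, and 0 in all 3 late lists. Outside it 0010 had 17.3%, 24.9% and 11.8% in testis and 16.6% to 19.7% in the late lists, which is within the range of the scaffolds without the mark. The stretch was thus already low in testis, highest in ovary3 and 0hr, and empty late.

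Scaffold 0035 stood apart from the other 30. Its 509 eliminated peaks spread from 89994 to 2210111, 95.9% of its extent, with 148 retained peaks among them. Its cover was 8.44%, 4.24% and 3.95% in the testis lists, 4.34%, 3.301% and 16.5% in the ovary lists, 13.1%, 6.88% and 5.84% in the early lists and 4.32%, 3.05% and 3.19% in the late lists. It was the lowest of the 31 in every list other than ovary3, where 0020 was lowest at 9.75%. Its early to testis ratio of 1.55 met the rule with both values low. In the remaining 4.07% of its extent late cover was 20.98% to 21.06%, against 2.29% to 3.61% inside the marked stretch. DNA that somatic cells discard can give few late peaks, so low late cover there is partly fixed by what the mark stands for.

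Along the scaffolds CENP-A was spread from end to end, with less near the ends. With each scaffold cut into 10 equal parts, mean early cover was 18.1% ± 7.65 in the first part, 27.2% ± 8.01 in the sixth and 19.4% ± 8.93 in the last (SD over 31 scaffolds). Late cover followed the same shape, with 14.01% ± 7.14, 21.6% ± 7.65 and 16.4% ± 7.65. Testis cover was flatter, at 14.1% ± 5.22, 17.5% ± 6.48 and 14.5% ± 7.07, and ovary cover flatter still, at 10.9% ± 3.84, 13.2% ± 4.14 and 11.8% ± 4.51. The SD over scaffolds was wider than the step from the first part to the sixth in testis and ovary lists and close to it in early and late lists. Scaffold ends are ends of assembled sequence and need not be ends of chromosomes.

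The 200 kb at each end were also compared with the sequence between them within each scaffold. At 60hr the ends had 17.3% against 25.1% inside, and 29 of 31 scaffolds had lower ends. At 0hr it was 18.1% against 23.4% (27 of 31), at 46hr 17.1% against 23.8% (26 of 31) and at 5day 15.1% against 20.6% (23 of 31). In testis3 the values were 8.41% and 8.85% (16 of 31), and in ovary1 10.5% and 10.8% (15 of 31), so ends and inside were nearly equal in those lists. The other gonad lists had lower ends on most scaffolds, with 14.4% against 17.2% in ovary3 (24 of 31), 15.2% against 17.4% in testis1 (22), 7.43% against 9.04% in ovary2 (21) and 17.9% against 22.3% in testis2 (20). The ratio of end to inner cover was thus 0.688 to 0.772 in the early lists, 0.732 to 0.80 in the late lists and 0.804 to 0.975 in the gonad lists. On the 7 other large scaffolds it was 0.598 to 0.627 in the early and 0.602 to 0.643 in the late lists. In the ovary lists there it was 0.547 to 0.657. In each of these lists it was lower than on the balanced scaffolds. In testis1, testis2 and testis3 it was 1.04, 0.774 and 1.69 on the 7 others, against 0.873, 0.804 and 0.950 on the balanced scaffolds. The order was thus reversed in testis1 and testis3. These differences were not tested.

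**Figure D3:**
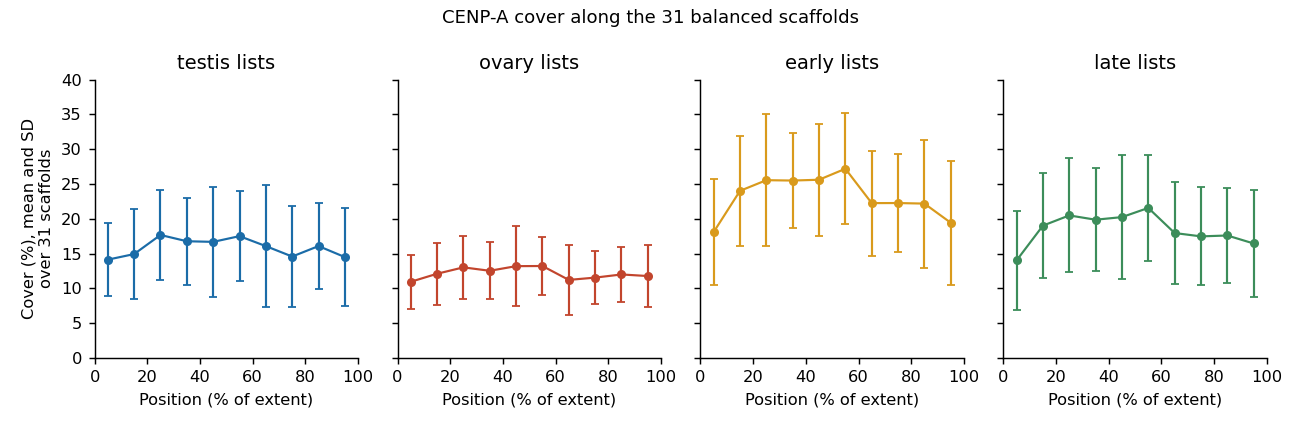
Cover (y axis, %; mean and SD over the 31 balanced scaffolds) in 10 equal parts of the scaffold extent (x axis, %), for the means of the testis, ovary, early and late lists. Early cover is 18.1% in the first part and 27.2% in the sixth, and ovary cover moves only between 10.9% and 13.2%.

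Each scaffold had a few places of dense CENP-A. The densest 100 kb bin of a scaffold by mean testis cover had a median of 41.6% over the 31 scaffolds, and the highest was 54.0% on 0015 at 1900001 to 2000000. For the ovary lists the median was 31.8% and the highest 43.0% on 0004 at 2500001 to 2600000. For the early lists these were 52.7% and 65.4% (0028, 900001 to 1000000), and for the late lists 49.99% and 63.6% (0003, 5400001 to 5500000). The densest early bin lay between 20% and 80% of the extent on 27 scaffolds, the densest testis bin on 19, ovary bin on 20 and late bin on 21. That band is the larger part of the extent, so most bins would lie there if spread evenly. The difference between classes was not tested.

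The densest bin was the same in early and late lists on 18 of the 31 scaffolds. Ovary lists shared it with testis on 11, with early lists on 11 and with late lists on 11. Testis lists shared it with early lists on 7 and with late lists on 7. On 4 scaffolds a single bin was densest in all 4 classes: 0018 at 1900001 to 2000000, 0021 at 400001 to 500000, 0022 at 1300001 to 1400000 and 0031 at 700001 to 800000. On 0018 that bin had mean cover of 50.7% in testis, 31.8% in ovary, 57.0% in early and 57.1% in late lists. On 7 scaffolds each class had a bin of its own. On 0023 the densest testis bin (100001 to 200000) had 30.4% in testis and 18.4% in ovary, but 9.75% in early and 2.90% in late lists, while the densest late bin (300001 to 400000) had 54.6% in late and 22.1% in testis lists. Strong sites of one class were therefore weak in another on some scaffolds and common to all on others.

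Over the 1005 bins of 100 kb, Spearman's correlation of cover was 0.97 between 5day and 7day, 0.94 between 46hr and 60hr and 0.86 between 0hr and 46hr. It was 0.86 between 60hr and 5day, and 0.82 between ovary3 and 0hr. The closest pair that joined testis and ovary was testis1 with ovary1, at 0.87, well above testis1 with testis2 (0.58) or testis3 (0.60). The least alike lists were testis3 and 60hr, at 0.38. Bins of a scaffold are neighbours, and lists of a stage share their libraries' depth and peak calling, so these values describe likeness and carry no test.

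At the level of base pairs, 48.3% of the extent of the balanced scaffolds lay in no peak of any list, and 0.534% lay in peaks of all 12. Peaks of at least 1 testis list covered 30.8 Mb, of which 24.9% was in no ovary, early or late peak. The corresponding share was 7.69% for ovary, 16.0% for early and 9.85% for late peaks. Of the covered length of a testis list, 48.2% on average lay in peaks of an early list, and of an early list 32.3% lay in peaks of a testis list. Late lists shared 80.8% of their length with each other on average, ovary lists 45.7% and testis lists 48.0%. The choice of scaffolds by their testis and early cover bears on these shares, which are a description. On the 7 other large scaffolds 8.71% of the length under testis peaks, 10.1% under ovary, 29.1% under early and 11.1% under late peaks was in no peak of another class, so the order of testis and early was the opposite there.

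Stretches of at least 20 kb with no peak in any list numbered 568 on the balanced scaffolds. The longest on each scaffold ranged from 29.2 kb on 0032 to 95.6 kb on 0020 (415352 to 510929), with a median of 54.5 kb. The share of extent free of peaks ran from 37.1% on 0018 to 68.7% on 0035, with a median of 47.7%, against 50.2% to 58.4% on the 7 others. The lists that chose the scaffolds enter this share, so the difference is partly fixed by the choice. In the 6 lists that did not, 64.2% of the pooled extent of the balanced scaffolds lay in no peak. On the 7 others this was 65.6%. Free stretches may also be sequence on which reads cannot be placed, which was not tested.

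Peaks themselves were somewhat smaller and more closely set on the balanced scaffolds than on the 7 others, in lists the choice did not use. Median peak widths were 1562, 1657 and 1779 bp in ovary lists 1 to 3 and 2995, 2370 and 2576 bp at 5day, 7day and in L1. On the other scaffolds they were 1640, 1716 and 1917 bp, and 3566, 2642 and 2961 bp. Peaks were narrower on the balanced scaffolds in 6 of 6 lists, with a mean log2 ratio of -0.14 ± 0.08 (SD, n = 6; exact sign-flip permutation p = 0.0312, the smallest that 64 patterns allow, adjusted p = 0.0781). Peaks per Mb were higher in 6 of 6 lists, at 38.3 to 69.3 against 30.3 to 66.9, with a mean log2 ratio of 0.14 ± 0.11 (SD, n = 6; exact permutation p = 0.0312, adjusted p = 0.0781). Reads per kb of peak were higher in 5 of 6 lists, with a mean log2 ratio of 0.13 ± 0.13 (SD, n = 6; exact permutation p = 0.0625, adjusted p = 0.104). None passed 0.05 after adjustment over the 5 tests. The mean log2 width ratio changed sign, from -0.14 to 0.02, when all 569 remaining scaffolds with peaks were the comparison.

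Broad peaks made up a larger share of the cover in embryos and larvae than in ovary2 or ovary3. On the balanced scaffolds peaks of at least 10 kb made up 10.6%, 5.68% and 5.08% of covered length in ovary lists 1 to 3, 11.8%, 24.6% and 38.9% at 0hr, 46hr and 60hr, and 45.4%, 34.4% and 36.8% at 5day, 7day and in L1. In the testis lists they made up 22.7%, 22.5% and 5.46%. The widest were 48.6 kb at 60hr on 0037 (300923 to 349511), 46.4 kb in testis2 on 0018 (2589465 to 2635821) and 45.5 kb at 5day on 0004 (5329064 to 5374584). Testis1 and testis2 thus had nearly as large a share in broad peaks as 46hr embryos, and ovary2, ovary3 and testis3 had the smallest.

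Ovary and late lists, which did not choose the scaffolds, were compared window by window to find where CENP-A differed. Of 3869 windows of 20 kb on the balanced scaffolds, cover was higher in the late lists in 861 (22.3%) and lower in 164 (4.24%; limma, Benjamini-Hochberg adjusted p under 0.05). Over all 10723 windows of all scaffolds these shares were 20.6% and 4.49%, so the balanced scaffolds were near the background in both directions, and so were the 7 others, with 21.6% and 3.42%. The median difference was 1.88 percentage points on the balanced scaffolds, 1.92 on the 7 others and 0.848 over all windows. Every balanced scaffold had windows of both kinds. Higher windows ran from 4.00% of windows on 0035 to 34.5% on 0029, and lower windows from 0.787% on 0015 to 8.97% on 0010. Stretches with the mark for eliminated DNA span 95.9% of 0035 and 20.9% of 0010, where low late cover is partly fixed by the mark. The p-values measure the spread between lists of a class, and library replication is not in them.

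The direction of the balance depended on the measure. With log2 reads in peaks in place of cover, 357 windows (9.23%) were higher and 410 (10.6%) lower, 46.5% higher of all calls, against 84.0% by cover. Over all scaffolds log2 reads gave 8.32% higher and 10.9% lower. With each list cut to the same covered length 351 (13.3%) were higher and 150 (5.70%) lower, against 10.6% and 6.56% over all scaffolds. Higher windows numbered 501 without 5day, 532 without 7day and 525 without ovary2, and lower windows 50 without 5day, 46 without 7day and 60 without L1. The shares over all scaffolds in these fits were 12.2% to 12.7% higher and 1.34% to 1.74% lower, against 12.7% to 13.5% and 1.17% to 1.53% on the balanced scaffolds. Windows that were higher in the late lists had mean cover of 13.3%, 10.7% and 19.6% in the ovary lists and 60.6%, 56.6% and 56.0% in the late lists. In the lists that did not enter the fit they had 24.2%, 28.5% and 12.3% in testis and 32.2%, 46.6% and 55.8% at 0hr, 46hr and 60hr. Windows that were lower had 35.8%, 31.5% and 39.4% in ovary and 4.34%, 3.07% and 3.76% in late lists, with 45.9%, 39.4% and 19.8% in testis and 41.1%, 29.5% and 24.9% in early lists. At 60hr the higher windows were thus near their late level, and the lower windows had more than their late level. The ovary and late lists chose these windows, so their levels in those lists are extreme by the choice. The distance of 60hr from the late level is partly fixed by it.

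Runs of adjacent windows of 1 direction were ranked by the change in covered length, and the 10 largest of each direction are described. The longest gain was 120 kb and the longest loss 60 kb. The first gain was on 0023 at 320001 to 420000, 13.9% along the scaffold, with 11.5%, 4.01% and 16.2% in the ovary lists against 74.5%, 61.3% and 53.4% in the late lists. It had 31.9%, 38.2% and 6.35% in testis and 16.4%, 21.2% and 26.5% at 0hr, 46hr and 60hr, so every early list was below every late list. On 0021 at 1280001 to 1400000, 48.5% along, ovary cover was 10.9%, 2.19% and 9.76% and late cover 51.0%, 47.1% and 44.6%. There 60hr already had 59.7% and testis2 52.1%.

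On 0003 at 380001 to 440000 the ovary lists had 7.05%, 0 and 0, and the late lists 67.3%, 68.3% and 65.7%. No peak lay there at 0hr or in testis3, and cover was 36.02% at 46hr and 51.4% at 60hr. On 0029, 2 of the 10 gains were found, at 900001 to 980000 (10.9% ± 6.87 in ovary and 63.9% ± 4.70 in late lists; SD, n = 3 each) and at 1280001 to 1380000 (26.9% ± 7.37 and 63.8% ± 3.98). Scaffold 0013 also held 2, at 920001 to 1040000 (7.21% ± 7.89 and 44.1% ± 10.3) and at 2000001 to 2080000 (17.3% ± 5.29 and 63.3% ± 4.63). The other 3 lay on 0027 at 1920001 to 2020000 (14.8% ± 5.37 and 57.6% ± 6.05), on 0011 at 1120001 to 1200000 (14.4% ± 4.59 and 64.2% ± 0.801) and on 0025 at 1040001 to 1120000 (14.05% ± 2.61 and 60.7% ± 1.82). In 5 of the 10 every late list was above 60hr as well.

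Of the 10 largest losses, 7 had no peak in any late list. The first was on 0017 at 2940001 to 2980000, 92.5% along, with 52.1%, 53.3% and 62.8% in the ovary lists. Testis2 had 79.2% and the early lists 55.5%, 79.0% and 76.1%, and no late list had a peak, so the early lists were as full as the ovary lists and the late lists were empty. On 0025 at 1840001 to 1900000 ovary cover was 26.01%, 37.2% and 33.0% and testis cover 57.6%, 85.8% and 30.3%. The early lists had 39.1%, 20.1% and 9.72%, and the late lists 0.331% ± 0.287 (SD, n = 3). On 0014 at 3400001 to 3460000, the end of that scaffold, ovary cover was 33.2% ± 2.43 (SD, n = 3) and the early lists had 3.26%, 5.28% and 4.23%.

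On 0029 at 1880001 to 1920000 the testis lists had 76.2%, 72.4% and 55.2%, the ovary lists 47.9%, 16.8% and 50.7%, and 0hr 11.05%, with no peak in the 5 later lists. Its other loss, at 1160001 to 1200000, still had 64.2%, 52.3% and 25.7% in the early lists. On 0003 at 3280001 to 3320000 ovary cover was 43.0% ± 7.87 (SD, n = 3) and the early lists had 46.8%, 22.2% and 14.5%. Single windows made up 3 of the losses. On 0023 at 880001 to 900000 cover was 94.0%, 100.0% and 89.7% in testis, 96.9%, 28.2% and 90.0% in ovary and 67.0% at 0hr, with no peak from 46hr on. On 0010 at 3860001 to 3880000 ovary lists had 100.0%, 46.01% and 82.2% and 60hr had 6.48%, and on 0021 at 2380001 to 2400000 the late lists still had 11.7% to 14.1%. The last, on 0010 at 3160001 to 3200000, lies inside the stretch marked eliminated, and the other 9 lie outside any such stretch. In 9 of the 10 every testis list was above every late list. In the 7 with no late peak, any testis peak meets this, so it is largely fixed by the choice of regions. The lost regions thus differed in the early lists, some being nearly empty at 0hr or 46hr and others still full at 60hr. Adjusted p was at most 0.0448 in the windows of the 20 regions (limma), which were built only from windows with adjusted p under 0.05.

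**Figure D4:**
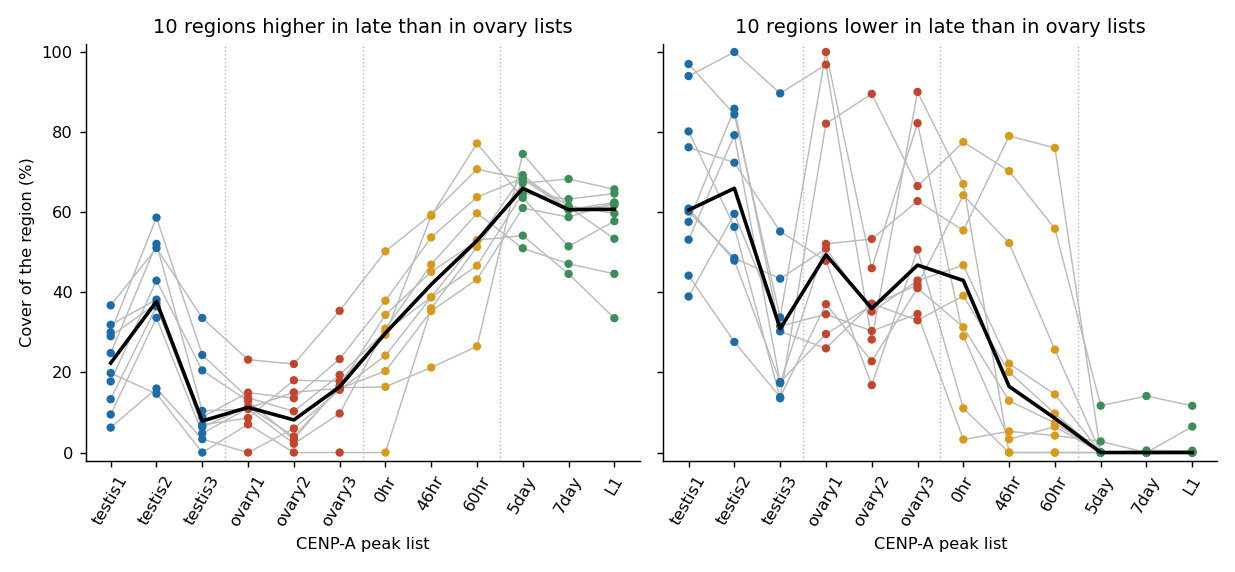
Cover (y axis, %) of the 10 regions with the largest gain (left) and the 10 with the largest loss (right) from ovary to late lists on the balanced scaffolds, in each of the 12 lists (x axis); points are coloured by class, grey lines join a region and the black line is the median. The ovary and late lists chose the regions; the median at 60hr is 52.9% on the left and 8.55% on the right.

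Whole balanced scaffolds had more CENP-A cover in late than in ovary lists, but few passed the test. Cover was higher in the late mean on 30 of 31 scaffolds, all except 0035, against 332 of all 450 scaffolds of at least 20 kb. It was also higher on all 7 other large scaffolds. The median difference was 6.63 percentage points on the balanced scaffolds, 6.44 on the 7 others and 4.54 over all 450. In limma 17 of the 31 were under 0.05 before adjustment, against 174 of all 450 and 1 of the 7 others. After adjustment 4 of 31 (12.9%) passed as higher and none as lower, against 22.0% higher and 2.22% lower of all 450. The 4 were 0020 (9.34% ± 1.52 in ovary and 15.9% ± 1.12 in late lists), 0025 (12.5% ± 1.10 and 20.3% ± 0.563), 0027 (12.7% ± 3.04 and 21.03% ± 0.846) and 0033 (11.4% ± 2.11 and 18.6% ± 0.683; SD, n = 3 each), with adjusted p of 0.0348 to 0.0486. Wider gaps with more spread between lists did not pass. The largest gap was on 0037, from 13.1% ± 6.45 to 23.9% ± 2.48 (adjusted p = 0.0692 in limma). Every late list was above every ovary list on 19 of the 31 scaffolds, against 37.6% of all 450. The limma calls changed with whichever list was left out. Without ovary3, 30 of the 31 (96.8%) passed as higher, against 45.96% of all scaffolds tested. Without any one of the other 5 lists none of the 31 did, against 9.396% to 15.5% of all.

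Reads in peaks per scaffold, which scale with the total over all peaks, gave 0 calls among the 31 in edgeR's quasi-likelihood test. The background in edgeR over 411 scaffolds was 10.9% higher and 7.54% lower. Before adjustment 8 of the 31 were under 0.05, against 113 of all 411 and 0 of the 7 others. DESeq2 called 11 of the 31 (35.5%), against 33.1% of all scaffolds. Without ovary3 there were 4 calls in edgeR (12.9%, against 25.7% of all), and without ovary2 there were 3 (9.68%, against 16.1%). The median log2 difference of the 31, late over ovary, was 0.24, against 0.15 over all. Scaffold 0035 was lowest by this measure, at -1.72 ± 0.50 (SE; adjusted p = 0.0806 in edgeR), and 0022 was highest, at 0.66 ± 0.29 (SE; adjusted p = 0.222).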

How the data were processed

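CENP-A ChIP-seq was analysed in 24 libraries of the 62 samples in the series, 2 for each of 12 stages or gonad samples. Input, CENP-C and histone mark libraries were not used here. The submitters' processing notes name Bowtie2 and MACS2; their versions and settings, and how input entered, are not given in the sources used here. Each deposited table lists, per the file headers, a peak's scaffold, start and end, 1 coverage column per replicate and the mark retained or eliminated. These columns, as deposited by the authors, are raw counts of reads in each peak. Which of them is single-end, and whether starts are 0-based, is unknown. Coordinates are those of the authors on assembly AgBionano_v1.9, named in the scaffold names; genes in the regions are not analysed here. Depth is known only within peaks.

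Widths are end minus start. The balanced scaffolds and the lists of stages were chosen with earlier results of these data known. Testis and early lists chose the scaffolds and were not tested; ovary1, ovary2 and ovary3 were tested against 5day, 7day and L1. Windows of 20 kb (the last at least 5 kb) with mean cover of at least 1%, and scaffolds of at least 20 kb, were fitted with limma 3.58.1 (trend, robust), and reads per scaffold, both libraries summed, with edgeR 4.0.16 (TMM, filterByExpr) and DESeq2 1.42.0 as the alternative, in R 4.3.3. P-values of these fits were adjusted over all windows or scaffolds, and those of the 5 ratio tests over the 5. Ratios per list were tested with exact permutation tests (scipy 1.17.1). The fits were tested on simulated data. Named regions are runs of adjacent called windows on the balanced scaffolds, the 10 largest of each direction by difference of mean cover times length, and the densest 100 kb bin per scaffold and class. No label ties libraries to separate animals, and p-values measure the spread between lists. Alternatives were other thresholds, stricter peaks, equal covered length, log2 reads, 50 kb windows, no filter and leaving out lists or scaffolds.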

Additional observations from a re-analysis of the deposited data

How the results depend on the processing

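Cover has 1 value per list, so no block could be fitted to it. For reads, a replicate block on library number, chosen after seeing the data, called 17 of the 31 scaffolds (54.8%, against 39.9% of all); it counts the 2 libraries of a list as separate samples, so its p-values are too small. Windows higher in late lists (861) numbered 351 with equal covered length and 357 with log2 reads. Of the 1805 windows of 50 kb, 454 were higher (25.2%, against 23.1% of all). Leaving out a list gave from 501 without 5day (12.7%, against 12.2% of all) to 1040 without ovary3 (30.0%, against 28.3%). Lower windows (164) numbered 90 with stricter peaks (3.16%, against 4.35% of all), 410 with log2 reads and 72 of 50 kb (3.99%, against 4.87%). Leaving out a list gave from 46 without 7day (1.17%, against 1.34% of all) to 230 without ovary3 (6.64%, against 7.11%). Scaffolds called higher (4) numbered 1 with equal covered length (3.23%, against 5.62% of all), 27 with stricter peaks (87.1%, against 38.3%) and 2 with log2 reads (6.45%, against 6.00%), and 0 to 30 without a list; scaffolds called lower (0) numbered 1 with log2 reads (against 8.22% of all). Calls by reads (0) numbered 11 in DESeq2, 2 with the first library only (6.45%, against 19.5%) and 0 to 4 without a list. The late minus ovary difference of the log2 cover ratio (-0.08) turned to 0.068 against all other scaffolds, 0.16 with stricter peaks and 0.42 with equal covered length, and ran from -0.17 to 0.0053 without a list and from -0.09 to -0.06 without a scaffold. The log2 width ratio turned to 0.016 against all other scaffolds. The cause was not tested. The remaining ratios kept their sign in all 42 alternatives. With a list left out the exact tests cannot pass 0.05, and late minus ovary cannot with all 6, so their p-values say nothing about stability. Where a list was left out, 2 lists remained in its class. Depth is known only within peaks, so weak sites below the authors' threshold are not seen.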
